A study of Mus musculus with 6 samples.

Results

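The forkhead transcription factors of the mouse were followed through the first 2 days of neural plate development in culture. A gene was taken as a member where a probe of the array carried a RefSeq messenger RNA accession whose symbol starts with Fox, followed by a letter from a to s and a digit. This rule found 44 genes and 55 probes, of 20274 genes with a name and 55646 probes in all, and no measured value entered it. The cells were epiblast stem cells (EpiSCs) of the 129/Sv strain, pluripotent cells that are grown from the embryo's epiblast after implantation. They were kept in an epiblastic maintenance condition (EpiSC), or moved to a condition for neural plate development for 1 day (NPC1) or for 2 days (NPC2). Duplicate cultures, A and B, of 1 seed culture made up each group. The p-values rest on 1 spread per gene, pooled from the duplicates of all 3 groups and drawn towards that of all genes. It measures only the spread between such duplicates, which may be technical. Cy3-labelled material from the total RNA of every culture was placed on an Agilent 1-colour array, and the 6 arrays lay on 1 slide.

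Forkhead proteins share a winged-helix DNA-binding domain, and several of them can bind their sites in closed chromatin. The family divides into lettered classes, which act in the endoderm and midline (Foxa), in pluripotent cells and neural crest (Foxd3), downstream of Nodal (Foxh1), in the nuclear response to growth factor withdrawal (Foxo) and in cell division (Foxm1). In the embryo many of them are present in narrow domains and for short times.

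Of the 44 genes, 34 were tested, because both arrays of 1 group or more gave a signal well above background, and 27 of these were well above background on all 6 arrays. Foxq1, Foxp3 and Foxr1 passed through the EpiSC arrays alone and Foxj2 through the NPC1 arrays alone, so a difference in these 4 genes is partly built into the filter. The other 10 genes (Foxb2, Foxc2, Foxd1, Foxd2, Foxf1, Foxf2, Foxi2, Foxl1, Foxn1 and Foxp2) reached at most 17.6 in scaled intensity. Of these, 8 were well above background on no array, and Foxc2 and Foxd2 on culture A of NPC2 only. A scaled intensity is the processed intensity after every array was brought to a shared 75th percentile of 415, and it is compared here only between arrays for 1 probe, since probes differ in brightness. On the arrays, 58.2% to 61.1% of non-control spots were well above background, and saturated spots numbered 0. All 12 EpiSC marker genes were well above background on every array, and 11, 12 and 14 of 14 neural plate markers were so in EpiSC, NPC1 and NPC2. The sum of the EpiSC markers fell, at 211900 to 217800 in EpiSC, 148900 to 153500 in NPC1 and 79120 to 79130 in NPC2. That of the neural plate markers rose, at 21690 to 22430, 24810 to 25820 and 30400 to 31140. In both lists some genes moved against the sum, such as the neural plate marker Nes, which fell 4.09-fold in NPC2 against EpiSC. The sum of 15 fibroblast or feeder markers moved with the days, at 3714 to 3974 in EpiSC, 5292 to 5519 in NPC1 and 7085 or more in NPC2. Acta2 rose in both steps, from 328 and 384 in EpiSC to 1215 and 1133 in NPC1 and 2255 and 2025 in NPC2. Thy1 was highest in NPC1 (1141 and 1215, 2476 and 2557, and 1679 and 1722 in the same order). Col1a2 rose only in the second day (754 and 752, 670 and 529, and 2112 and 1898). S100a4 and Twist2 fell 9.32-fold and 2.81-fold in NPC2 against EpiSC, Lum and Fap were well above background on no array, and the part of these markers in the results was not tested. In such bulk samples, fewer cells of a type and less RNA per cell cannot be told apart.

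Promoter windows are shown for 4 members whose signals changed in different orders, a Foxa pair that was low at day 1 and a Foxd pair that changed in opposite directions. Each window runs from 250 bases before to 50 bases after the RefSeq start site, 5′ to 3′ on the gene's strand, in build GRCm38.p6. Foxa1 lies at chr12:57546062-57546361 (minus strand), Foxa2 at chr2:148045899-148046198 (minus strand, 1 of its 3 windows), Foxd3 at chr4:99656049-99656348 (plus strand) and Foxd4 at chr19:24900967-24901266 (minus strand). Capitals mark the forkhead core motif.
Foxa1: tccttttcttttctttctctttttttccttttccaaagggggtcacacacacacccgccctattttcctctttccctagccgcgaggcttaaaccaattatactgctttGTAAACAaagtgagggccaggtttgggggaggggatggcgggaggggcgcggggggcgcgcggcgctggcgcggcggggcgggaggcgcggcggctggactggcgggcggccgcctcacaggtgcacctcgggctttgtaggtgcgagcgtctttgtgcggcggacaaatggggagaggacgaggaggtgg
Foxa2: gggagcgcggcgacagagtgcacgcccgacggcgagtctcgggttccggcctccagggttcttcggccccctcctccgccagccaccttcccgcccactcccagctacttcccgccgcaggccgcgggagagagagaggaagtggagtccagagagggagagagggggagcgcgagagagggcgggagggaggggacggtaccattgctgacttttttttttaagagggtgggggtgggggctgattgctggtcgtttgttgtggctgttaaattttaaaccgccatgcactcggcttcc
Foxd3: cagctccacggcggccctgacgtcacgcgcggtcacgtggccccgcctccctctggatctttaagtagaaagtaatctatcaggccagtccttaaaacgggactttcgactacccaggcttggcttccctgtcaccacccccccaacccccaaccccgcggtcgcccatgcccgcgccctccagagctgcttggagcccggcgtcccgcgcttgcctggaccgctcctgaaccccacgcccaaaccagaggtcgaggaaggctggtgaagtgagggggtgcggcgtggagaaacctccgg
Foxd4: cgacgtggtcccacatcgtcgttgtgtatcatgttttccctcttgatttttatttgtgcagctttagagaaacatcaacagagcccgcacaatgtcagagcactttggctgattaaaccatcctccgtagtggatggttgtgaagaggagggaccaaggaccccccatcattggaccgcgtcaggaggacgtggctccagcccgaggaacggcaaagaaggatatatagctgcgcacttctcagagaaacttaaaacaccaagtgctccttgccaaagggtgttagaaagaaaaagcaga

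The RefSeq table held 33 windows of 28 forkhead genes among 32851 windows. The forkhead core (TGTTTAC, or GTAAACA on the other strand) stood in 1 forkhead window, that of Foxa1, where it starts at base 110 of the window, and in 3.65% of all windows. The FOXH1 motif (TGTGGATT, or AATCCACA) was in 0 forkhead windows and in 0.855% of all, and the octamer bound by POU factors (ATGCAAAT, or ATTTGCAT) in 0 and in 1.74%. The OTX motif (TAATCC, or GGATTA) was in the windows of Foxn3 and Foxp3 and in 7.06% of all windows. Forkhead windows had a median G and C content of 62.7% and a median observed over expected CpG ratio of 0.68, against 52.7% and 0.384 for all windows. A match describes letters in a window and is not a binding site.

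After 1 day, the question was which forkhead genes had already changed in the neural plate condition. Foxa2 and Foxa1 of the endoderm, Foxd3 of pluripotent cells, Foxq1 and Foxo1 fell at least 2-fold, and Foxb1 and Foxd4, members linked to the early neural plate and tube, rose at least 2-fold. Of the 34 tested members, 18 passed limma's test at an adjusted p under 0.05 in NPC1 against EpiSC, where 50.1% of all 14772 tested genes passed. Higher calls numbered 7 (21.5% of all genes) and lower calls 11 (28.6%). With a fold of at least 2 added to the rule, 7 members were called (8.34% of all genes), 2 higher (4.46%) and 5 lower (3.88%). The median log2 change was -0.16 over the tested members and -0.05 over all tested genes. The number of higher calls, 7, was 3 without EpiSC culture B, 4 without NPC1 culture A and 4 without NPC1 culture B. With normexp background correction, 27 of the 66 called changes over the 3 comparisons were more than 1.5 times smaller, among them those of Foxa1, Foxb1, Foxd4 and Foxq1 on the first day (-1.17, 1.04, 0.49 and -1.17 on the log2 scale). This setting adds an offset of 50 to every spot, which makes the log2 changes of dim probes smaller.

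After 2 days, 26 members passed in NPC2 against EpiSC, where 68.9% of all genes passed. Of these 9 were higher (28.3% of all genes) and 17 lower (40.6%). At a fold of at least 2 the calls numbered 13 (19.9% of all genes), with 4 members higher (9.69% of all genes), among them Foxb1, Foxd4 and Foxo6, and Foxa2, Foxd3, Foxi3, Foxj1, Foxn2, Foxn4, Foxo1, Foxq1 and Foxr2 lower (9 members; 10.2%). The median log2 change was -0.35 over the members and -0.10 over all tested genes. The median size of the change, without its sign, was 0.74 in the members and 0.41 in all genes.

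In the step from the first to the second day, 22 members passed in NPC2 against NPC1, where 47.4% of all genes passed, 9 of them higher (20.6%) and 13 lower (26.7%). At least 2-fold calls numbered 13 (10.9% of all genes), 5 higher (4.7%) and 8 lower (6.19%). The median size of the change was 0.64 in the members and 0.23 in all genes, whereas in NPC1 against EpiSC it was 0.26 and 0.25. The comparisons share arrays, and none of these shares was tested against the rest of the genes.

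**Figure D1:**
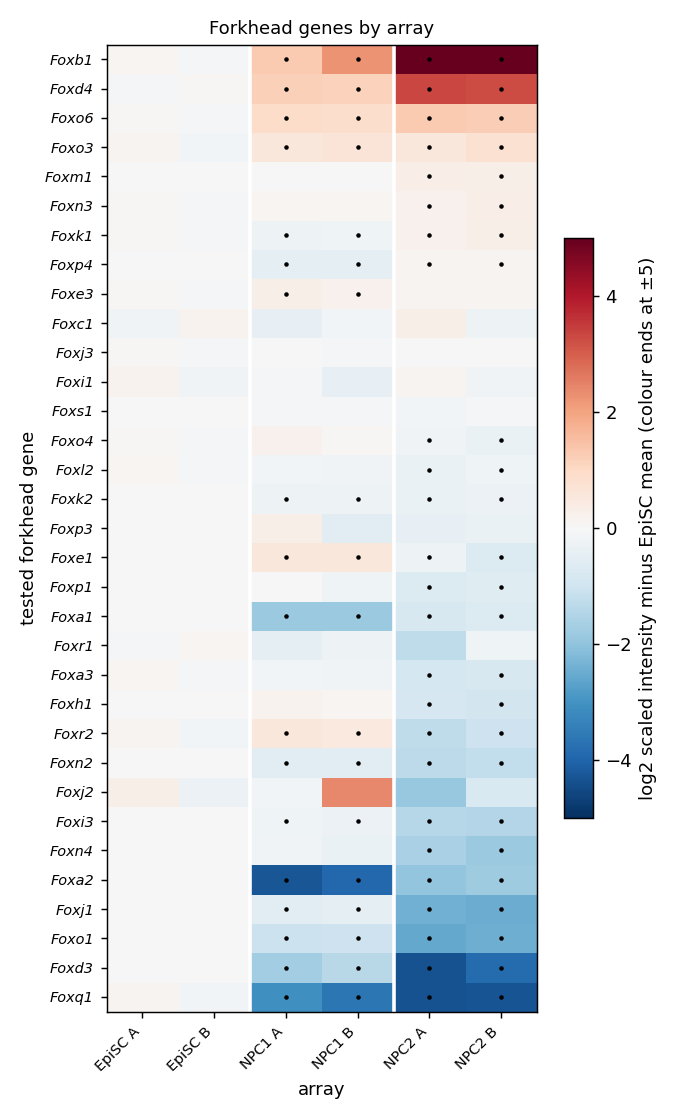
Heat map of the tested forkhead genes reported here (vertical axis) on the 6 arrays (horizontal axis), coloured by log2 scaled intensity minus the EpiSC mean of the gene, with colours ending at 5 on either side; a dot marks NPC1 or NPC2 arrays where the group differed from EpiSC at an adjusted p under 0.05. Foxb1 (log2 6.42 in NPC2) is at the top and Foxd3 (-4.09) near the bottom; Foxq1 was not well above background in NPC2, so its place in the order is not measured.

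Foxa2, a pioneer factor of definitive endoderm, node and floor plate, was the member that fell furthest on the first day and then rose. Its scaled intensity was 2083 and 1993 in EpiSC A and B, 106 and 135 in NPC1, and 523 and 589 in NPC2. The groups did not overlap, and the NPC2 arrays lay between the other groups. Against NPC1, NPC2 was 4.63-fold higher (log2 change 2.21 ± 0.13, SE, n = 2 arrays per group throughout; adjusted p = 0.000304), while it was still 3.67-fold below EpiSC (log2 -1.88 ± 0.13, adjusted p = 0.000218). In rank, the first-day change of Foxa2 was 17 from the lowest of 14772 tested genes. A second Foxa2 probe gave log2 changes of -4.30 for NPC1 against EpiSC and 2.33 for NPC2 against NPC1.

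Foxa1, its paralogue in gut and midline and the member whose window above holds the forkhead core, changed in the same order. It measured 175 and 171 in EpiSC, 47.9 and 47.8 in NPC1, and 99.7 and 109 in NPC2. All 3 groups were apart, with NPC1 the lowest. The log2 change was -1.85 ± 0.060 in NPC1 against EpiSC (adjusted p = 0.000113) and 1.12 ± 0.060 in NPC2 against NPC1 (adjusted p = 0.000224). Foxa3, the member of the class that acts mainly in liver and gut, had another order: 59.2 and 51.0 in EpiSC, 49.9 and 48.2 in NPC1, and 30.1 and 31.8 in NPC2. It did not pass on the first day (log2 -0.16, adjusted p = 0.171, but -0.27 and adjusted p = 0.046 with median scaling) and fell in the second (log2 -0.67 ± 0.085 in NPC2 against NPC1, adjusted p = 0.00316). A fall followed by a rise, both past the test, was found in 4 members (Foxa1, Foxa2, Foxk1 and Foxp4) and in 3.3% of all tested genes.

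Markers of other cell types moved beside these genes. The summed scaled intensity of 9 definitive endoderm markers was 1961 to 2034 in EpiSC, 616 to 622 in NPC1 and 1105 to 1168 in NPC2, with 7, 4 to 5 and 4 to 6 of the 9 markers well above background. Of these, Sox17 measured 70.7 and 86.1 in EpiSC, 18.4 and 20.5 in NPC1, and 13.5 and 8.32 in NPC2, and Cxcr4 measured 341 and 339 in NPC2, against 8.46 and 22.1 in NPC1. Hhex made up most of the NPC1 and NPC2 sums, at 604 and 612 in EpiSC, 500 and 479 in NPC1, and 738 and 701 in NPC2. Cer1 made up most of the EpiSC sum, at 1137 and 1186, and measured 52.4 and 58.6 in NPC1 and 21.2 and 21.6 in NPC2. Ttr was well above background on no array. The sum of 11 primitive streak and mesoderm markers was 8899 to 9138, 4889 to 5182 and 4300 to 4824 in EpiSC, NPC1 and NPC2. Kdr, which passed in no comparison, made up most of the NPC1 and NPC2 sums (4308 and 4007, and 4262 and 3716). T measured 1503 and 1413 in EpiSC and 60.5 and 64.6 in NPC2. Eomes measured 1510 and 1458 in EpiSC and 81.0 and 93.9 in NPC2, while Pdgfra and Tbx6 rose over both days. The part of cell composition in the Foxa values was not tested.

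Of the 25 genes on the array associated with Foxa2 in endoderm, node and floor plate, 17 were tested. These include Foxa1 and Foxa3, reported above, and Cer1, Gsc and Lhx1, which are also in the Nodal list below. In NPC1 against EpiSC 0 rose and 11 fell (21.5% and 28.6% of all genes). In NPC2 against EpiSC, 5 rose and 10 fell (28.3% and 40.6%). In NPC2 against NPC1, 7 rose and 6 fell (20.6% and 26.7%). Their median log2 changes were -1.19, -0.83 and 0.30, beside -0.05, -0.10 and -0.05 over all tested genes. Cer1, which encodes a secreted inhibitor of Nodal, measured 1137 and 1186 in EpiSC, 52.4 and 58.6 in NPC1, and 21.2 and 21.6 in NPC2, so it fell again in the second day (log2 -1.37 ± 0.069 in NPC2 against NPC1, adjusted p = 0.000192). T, the brachyury gene of streak and notochord, also fell in that step (log2 -0.43 ± 0.060, adjusted p = 0.00405). Ntn1, which encodes the floor plate guidance cue netrin 1, measured 1740 and 2005 in NPC2, against 105 and 134 in NPC1, and rose 15.8-fold in that step (adjusted p = 8.25e-05).

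Foxq1, a gene of epithelia and hair follicles, fell early and did not recover. Its probe read 120 and 101 in EpiSC, 13.3 and 8.87 in NPC1, where 1 of 2 arrays was well above background, and 5.33 and 5.57 in NPC2, where it was not well above background. The first-day change was log2 -3.34 ± 0.21 (adjusted p = 0.000456). NPC2 was at least 12.7-fold lower than EpiSC, a bound that sets the EpiSC mean against the lowest well-above-background signal of each NPC2 array. Its neighbours on chromosome 13, Foxf2 and Foxc1, with no other protein-coding gene between them, gave no such values. Foxf2 was well above background on no array, and Foxc1 measured 13.8 and 17.9 in EpiSC, 11.98 and 14.5 in NPC1, and 19.3 and 13.2 in NPC2 (log2 0.02 in NPC2 against EpiSC, adjusted p = 0.946).

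Foxb1, a gene of the developing diencephalon, mammillary region and neural tube, showed the steepest rise among the members. It measured 64.5 and 55.3 in EpiSC, 148 and 283 in NPC1, and 4905 and 5322 in NPC2. The groups did not overlap, although the NPC1 duplicates lay well apart. NPC2 was 85.6-fold above EpiSC (log2 6.42 ± 0.31, adjusted p = 7.11e-05), a rank of 11 among 14772 genes, and 25-fold above NPC1 (log2 4.64 ± 0.31, adjusted p = 0.000430). The smaller first-day rise of log2 1.78 ± 0.31 (adjusted p = 0.00904) was lost without EpiSC culture B, at log2 1.67 and an adjusted p of 0.052.

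Foxd4, whose frog relative acts in the early neural ectoderm, rose in both steps. Its values were 18.9 and 20.8 in EpiSC, 45.5 and 43.8 in NPC1, and 200 and 189 in NPC2. Each group stood apart from the next. The log2 change was 1.17 ± 0.068 in NPC1 against EpiSC (adjusted p = 0.000384), 2.12 ± 0.068 in NPC2 against NPC1 (adjusted p = 7.42e-05) and 3.29 ± 0.068 over both days, which is 9.80-fold.

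A list of forebrain genes, drawn up around forkhead members of that region such as Foxb1, held mostly rising genes. Of 25 on the array 18 were tested. In NPC1 against EpiSC, 10 rose and 1 fell (21.5% and 28.6% of all genes). In NPC2 against EpiSC, 15 rose and 2 fell (28.3% and 40.6%). In NPC2 against NPC1, 15 rose and 0 fell (20.6% and 26.7%). Their medians were 0.96, 3.09 and 2.36 on the log2 scale. Lhx5, a homeobox gene of the diencephalon, measured 16.7 and 21.0 in NPC1 and 664 and 711 in NPC2, and was above background on neither EpiSC array (at least 73.4-fold higher in NPC2 than in EpiSC). Tal2, a midbrain and diencephalon factor, measured 21.1 and 13.2 in EpiSC, 305 and 347 in NPC1, and 4262 and 4227 in NPC2. Irx3, a homeobox gene found caudal to the rostral forebrain, was already 18.1-fold up in NPC1 against EpiSC (log2 4.17 ± 0.10), whereas Dbx1, of progenitors at intermediate dorsoventral levels, was above background only in NPC2, at 262 and 285.

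**Figure D2:**
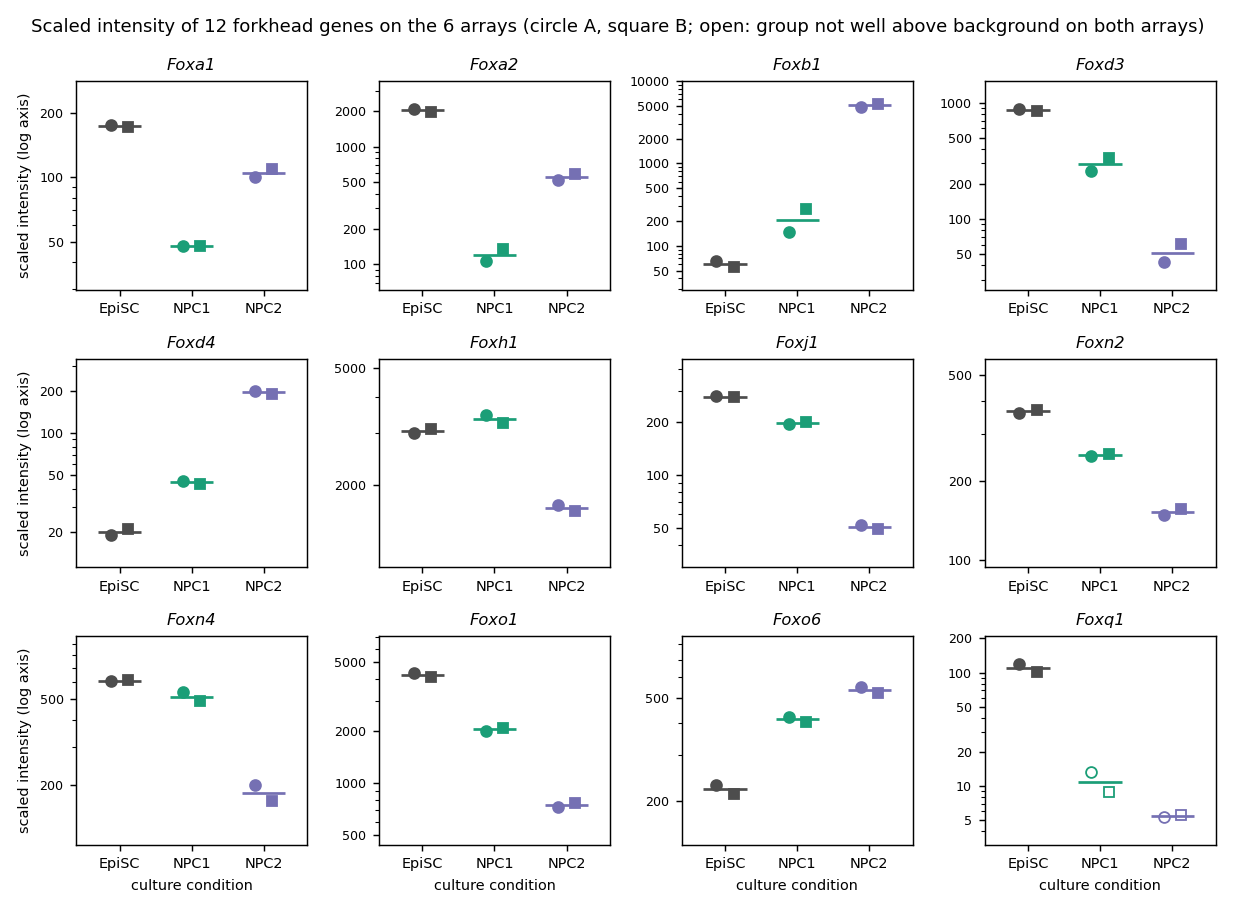
Scaled intensity (log axis) of 12 forkhead genes in EpiSC, NPC1 and NPC2; circles are culture A, squares culture B, and bars the geometric mean, with open symbols where the group was not well above background on both arrays. Foxa1 and Foxa2 are lowest in NPC1, Foxb1 and Foxd4 climb in both steps, and Foxd3, Foxo1 and Foxj1 decline in both.

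Foxd3, needed in the epiblast and in neural crest, fell in both steps. It measured 879 and 854 in EpiSC, 258 and 335 in NPC1, and 42.9 and 60.2 in NPC2. No arrays of different groups overlapped. The fold was 2.95 on the first day (log2 -1.56 ± 0.20, adjusted p = 0.00349), 5.79 on the second (log2 -2.53 ± 0.20, adjusted p = 0.000690) and 17.1 over both (log2 -4.09 ± 0.20, adjusted p = 7.26e-05).

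All 19 pluripotency and neural crest genes associated with Foxd3 were tested. In NPC1 against EpiSC 5 rose and 6 fell (21.5% and 28.6% of all genes). In NPC2 against EpiSC, 14 rose and 4 fell (28.3% and 40.6%). In NPC2 against NPC1, 14 rose and 5 fell (20.6% and 26.7%). Pax3, Pax7 and Sox9, regulators of the neural plate border and neural crest, were among those that rose: Pax3 and Pax7 were not well above background in NPC1 and were at least 38.7-fold and at least 14.8-fold higher in NPC2 (389 and 378, and 129 and 131), and Sox9 measured 1249 and 1326 in NPC2, against 252 and 271 in NPC1. Utf1, a pluripotency gene, fell 10.9-fold between NPC1 and NPC2 (log2 -3.45 ± 0.053, adjusted p = 2.63e-05). The sum of the 9 neural crest and surface ectoderm markers was 62680 to 66230 in EpiSC, 50240 to 54150 in NPC1 and 21080 to 22620 in NPC2. The keratins Krt8 and Krt18 made up most of it, and Krt18 alone measured 50860 and 54330 in EpiSC and 16830 and 15410 in NPC2. Sox10, Snai2 and Tfap2a rose in NPC2 against NPC1 (log2 1.13, 0.86 and 1.62), as did Pax3 and Pax7. Gata3 fell in that step (log2 -1.08), and Trp63 did not pass.

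Foxh1, the DNA-binding partner of Smad2 and Smad3 in Nodal signalling, fell in the second day. It measured 3006 and 3104 in EpiSC, 3468 and 3263 in NPC1, and 1710 and 1628 in NPC2. The NPC1 arrays lay above both EpiSC arrays, and the difference did not pass (log2 0.14 ± 0.057, adjusted p = 0.0997; the authors' value table and quantile normalization made it a higher call). NPC2 was 2.02-fold below NPC1 (log2 -1.01 ± 0.057, adjusted p = 0.000256).

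The 21 genes of the Nodal pathway and of the Foxh1 targets were all tested. In NPC1 against EpiSC, 3 rose and 13 fell (21.5% and 28.6% of all genes). In NPC2 against EpiSC, 3 rose and 12 fell (28.3% and 40.6%). In NPC2 against NPC1, 8 rose and 4 fell (20.6% and 26.7%). The medians were -0.35, -0.56 and 0.07. Lefty1, a target of Foxh1 that encodes a Nodal inhibitor, measured 5730 and 5948 in EpiSC, 246 and 246 in NPC1, and 338 and 311 in NPC2. It fell 23.7-fold on the first day and rose slightly in the second (log2 0.40 ± 0.059, adjusted p = 0.00501). Tdgf1, the Nodal co-receptor gene, fell in both steps. It measured 5819 and 5662 in EpiSC, 196 and 241 in NPC1, and 43.1 and 42.3 in NPC2. Mixl1, a homeobox target in the streak, was well above background in EpiSC alone, at least 4.57-fold above NPC2.

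Among the Foxo genes, whose proteins leave the nucleus when phosphorylated by AKT, Foxo1 and Foxo6 changed in opposite directions. Foxo1 measured 4316 and 4131 in EpiSC, 2016 and 2074 in NPC1, and 726 and 769 in NPC2. The duplicates lay close together and the groups far apart, with log2 changes of -1.05 ± 0.055 (adjusted p = 0.000309) on the first day and -1.45 ± 0.055 (adjusted p = 0.000101) on the second. The other Foxo1 probe gave -1.10 and -1.46. Foxo6, a member found mostly in brain, measured 230 and 214 in EpiSC, 420 and 404 in NPC1, and 548 and 520 in NPC2, and rose 2.41-fold over both days (log2 1.27 ± 0.062, adjusted p = 6.99e-05).

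The other Foxo members changed less. Foxo3, which acts in quiescence and apoptosis, measured 34.7 and 28.3 in EpiSC, 46.2 and 48.4 in NPC1, and 46.5 and 53.1 in NPC2, and was higher in NPC2 than in EpiSC (log2 0.66 ± 0.12, adjusted p = 0.00595). Its first-day rise (log2 0.59, adjusted p = 0.0140) was lost without either NPC1 array. In the second step it did not pass (log2 0.07, adjusted p = 0.660). Foxo4 measured 48.8 and 45.5 in EpiSC, 54.3 and 48.9 in NPC1, and 41.4 and 37.6 in NPC2, and its change of log2 -0.39 ± 0.084 in NPC2 against NPC1 (adjusted p = 0.0175) was lost when the probes of a gene were averaged.

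Of 27 tested Foxo target genes, 11 rose and 3 fell in NPC1 against EpiSC (21.5% and 28.6% of all genes), 9 rose and 10 fell in NPC2 against EpiSC (28.3% and 40.6%), and 4 rose and 12 fell in NPC2 against NPC1 (20.6% and 26.7%). Their median log2 changes were 0.22, 0.01 and -0.14. Gadd45b, a stress-induced target, fell 5.97-fold in NPC2 against EpiSC, and Pik3ip1, an inhibitor of PI3 kinase, rose 3.48-fold. Trib1, a pseudokinase gene, and Klf2, a zinc finger factor gene, each fell 2.39-fold. Of the 20 tested regulators of Foxo in PI3 kinase and AKT signalling, 3 rose and 7 fell in NPC1 against EpiSC (21.5% and 28.6% of all genes). In NPC2 against EpiSC, 4 rose and 10 fell (28.3% and 40.6%). In NPC2 against NPC1, 5 rose and 5 fell (20.6% and 26.7%). The median log2 changes of the regulators were -0.14, -0.15 and -0.07, beside -0.05, -0.10 and -0.05 over all tested genes. Sgk1, which encodes a kinase related to AKT that phosphorylates Foxo proteins, measured 4948 and 5243 in EpiSC, 547 and 603 in NPC1, and 269 and 264 in NPC2 (log2 -3.15 ± 0.067 in NPC1 against EpiSC, adjusted p = 6.52e-05). Irs1, the insulin receptor substrate gene, rose 1.69-fold in NPC1 against EpiSC and 2.16-fold in NPC2 against EpiSC. Mdm2, a ubiquitin ligase gene, fell 2.17-fold in NPC2 against EpiSC, and Pik3cb, a PI3 kinase subunit gene, fell 1.81-fold.

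**Figure D3:**
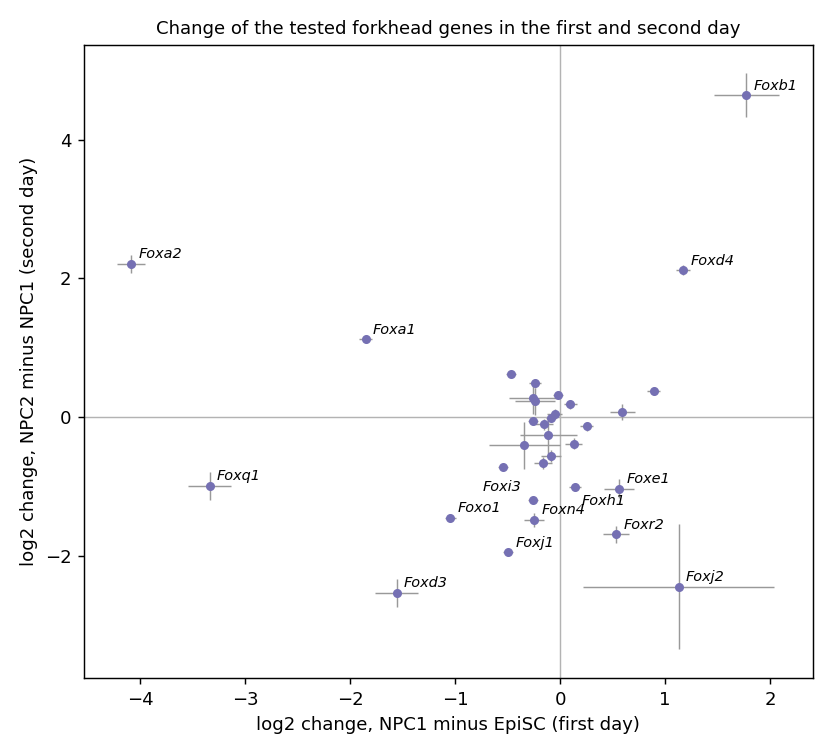
Change of each tested forkhead gene reported here on the first day (horizontal axis, log2 NPC1 minus EpiSC) and on the second day (vertical axis, log2 NPC2 minus NPC1), with standard errors as bars. Foxa2 (-4.09 and 2.21) and Foxa1 (-1.85 and 1.12) lie in the upper left, Foxb1 and Foxd4 in the upper right, and Foxd3, Foxo1 and Foxq1 in the lower left; both axes share the NPC1 arrays.

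Foxj1, the regulator of motile cilia, fell mainly in the second day. It measured 279 and 275 in EpiSC, 193 and 199 in NPC1, and 52.0 and 49.3 in NPC2. The groups were apart at each step, by log2 -0.50 ± 0.051 (adjusted p = 0.00175) and then -1.95 ± 0.051 (adjusted p = 5.86e-05). Of 21 tested genes of the motile cilium, 11 rose and 3 fell in NPC1 against EpiSC (21.5% and 28.6% of all genes), 10 rose and 4 fell in NPC2 against EpiSC (28.3% and 40.6%), and 5 rose and 5 fell in NPC2 against NPC1 (20.6% and 26.7%). Their median log2 changes were 0.30, 0.38 and 0.07. Rsph9, a radial spoke gene, rose 3.10-fold in NPC2 against EpiSC, and Ccno, which acts in multiciliated cells, fell 6.30-fold. Rfx4, a cilium and neural tube factor, measured 306 and 380 in NPC2, against 24.8 and 32.8 in NPC1, and was well above background on neither EpiSC array. The same held for Cfap43, a gene of the ciliary axoneme, at 27.4 and 19.4 in NPC2, against 19.7 and 22.5 in NPC1.

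Foxn4, a factor of retinal and spinal progenitors, measured 604 and 613 in EpiSC, 538 and 489 in NPC1, and 199 and 169 in NPC2. The first difference did not pass (log2 -0.25 ± 0.096, adjusted p = 0.0906, though it passed with median scaling at -0.35 and with normexp at -0.21) and the second did (log2 -1.48 ± 0.096 in NPC2 against NPC1, adjusted p = 0.000380). Foxn2, of the same class, fell in both steps, with 362 and 369 in EpiSC, 248 and 253 in NPC1, and 148 and 156 in NPC2 (log2 -1.27 ± 0.049 over both days, adjusted p = 3.76e-05). Foxn3, a repressor linked to a cell cycle checkpoint, was higher in NPC2 than in EpiSC by log2 0.28 ± 0.064 (adjusted p = 0.0130), a call lost with median scaling.

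Foxi3, a gene of cranial placodes and pharyngeal ectoderm, measured 80.0 and 79.7 in EpiSC, 68.0 and 65.5 in NPC1, and 29.4 and 28.9 in NPC2. It fell 2.29-fold in the second day (log2 -1.19 ± 0.046, adjusted p = 0.000103). Foxr2, which can act as an oncogene, and Foxe1, a thyroid gene, were the members that were higher in NPC1 than in both other groups with each step past the test, an order held by 4.29% of all genes. Foxr2 measured 99.7 and 82.7 in EpiSC, 135 and 128 in NPC1, and 37.8 and 44.0 in NPC2, where it was 3.23-fold below NPC1 (log2 -1.69 ± 0.12, adjusted p = 0.000511), while its first-day rise (log2 0.53, adjusted p = 0.0194) was lost without either NPC1 array or without EpiSC culture B. Foxe1 measured 15.98 and 15.9 in EpiSC, 23.4 and 23.7 in NPC1, and 13.3 and 9.92 in NPC2, where 1 of 2 arrays was well above background, and its first-day rise (log2 0.56, adjusted p = 0.0260) was lost without any of the 4 EpiSC and NPC1 arrays.

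Foxm1, which drives genes of the G2 and M phases, measured 1614 and 1668 in EpiSC, 1616 and 1626 in NPC1, and 2062 and 1995 in NPC2 (log2 0.32 ± 0.047 in NPC2 against NPC1, adjusted p = 0.00465). A second Foxm1 probe changed by 0.12 in that step and did not pass (adjusted p = 0.268 in a fit of 33532 single probes). Of 25 tested Foxm1 targets 1 rose and 8 fell in NPC1 against EpiSC (21.5% and 28.6% of all genes). In NPC2 against EpiSC, 5 rose and 12 fell (28.3% and 40.6%). In NPC2 against NPC1, 3 rose and 5 fell (20.6% and 26.7%). The changes were small: Cdc25b, a phosphatase of mitotic entry, rose 1.61-fold in NPC2 against EpiSC, and Cks1b, a cyclin-dependent kinase subunit, fell 1.64-fold. Mybl2 and Lin9, which act with Foxm1 at mitotic promoters, fell 1.53-fold and 1.49-fold.

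Foxp1, Foxp4, Foxk1 and Foxk2, broadly present repressors, moved by small steps, with differences between probes. Foxp1 measured 4014 and 3927 in EpiSC, 4076 and 3435 in NPC1, and 2468 and 2602 in NPC2, and fell in the second day (log2 -0.56 ± 0.093, adjusted p = 0.00719), as did a second probe of the same transcript (-0.66, adjusted p = 0.00231 in the fit of single probes). The remaining Foxp1 probe, annotated to another transcript accession, changed in the opposite direction. It measured 22.8 and 18.8 in EpiSC, 38.1 and 34.2 in NPC1, and 46.4 and 51.5 in NPC2, a log2 change of 1.24 ± 0.12 over both days (adjusted p = 0.00136 in the fit of single probes). Averaging the probes ended the Foxp1 call in NPC2 against EpiSC.

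Foxp4 measured 4284 and 4104 in EpiSC, 3077 and 2996 in NPC1, and 4668 and 4670 in NPC2, so that NPC1 was below both other groups (log2 -0.47 ± 0.048 against EpiSC, adjusted p = 0.00176). Its other probe of the same accession gave -0.53 on the first day and 0.66 on the second, and a dimmer probe of another accession -0.86 and 0.58. The difference of NPC2 from EpiSC (log2 0.155, adjusted p = 0.0352) was lost without any of the EpiSC or NPC2 arrays. Foxk1, a repressor in muscle progenitors and of autophagy genes, measured 489 and 451 in EpiSC, 394 and 402 in NPC1, and 544 and 571 in NPC2 (log2 0.49 ± 0.061 in NPC2 against NPC1, adjusted p = 0.00289), and its first-day fall (log2 -0.24, adjusted p = 0.0273) was lost without EpiSC culture A, either NPC1 array or NPC2 culture B. Foxk2 fell on the first day (log2 -0.26 ± 0.047, adjusted p = 0.0100, a call lost in the authors' value table and without EpiSC culture A) and did not pass on the second (log2 -0.06, adjusted p = 0.321).

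**Figure D4:**
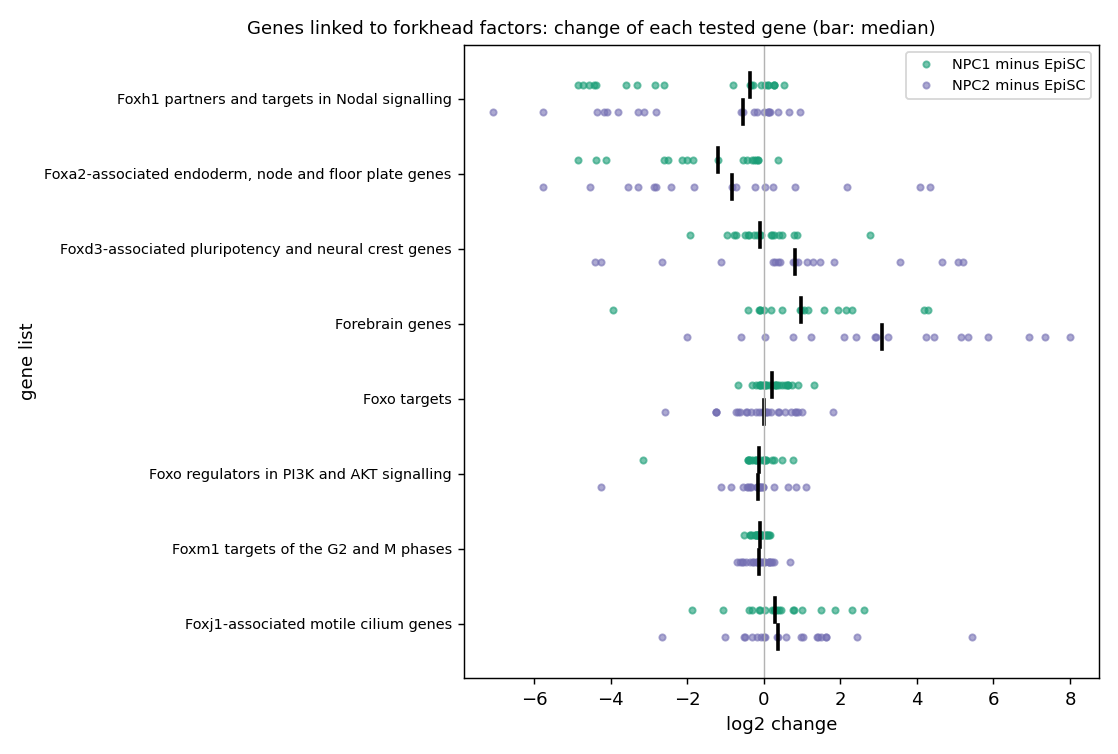
Log2 change (horizontal axis) of each tested gene in 8 lists of genes linked to forkhead factors (vertical axis), for NPC1 minus EpiSC and NPC2 minus EpiSC, with the median as a bar. The forebrain list has the highest medians (0.96 and 3.09), the Foxa2-associated list the lowest (-1.19 and -0.83), and the Foxm1 target list stays near 0; both comparisons share the EpiSC arrays.

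The remaining tested members changed little or not beyond the spread of the duplicates. Foxl2, the ovarian gene of the family, read 21840 and 19190 in EpiSC, 18740 and 18140 in NPC1, and 16400 and 17870 in NPC2, a log2 change of -0.26 ± 0.084 over both days (adjusted p = 0.0425) that turned to 0.02 with quantile normalization. A second Foxl2 probe of the same transcript was far dimmer. It read 62.3 and 57.95 in EpiSC, 67.8 and 53.8 in NPC1, and 51.35 and 51.7 in NPC2. Its change over both days did not pass (log2 -0.22, adjusted p = 0.193 in the fit of single probes). Foxe3, the lens member, passed only on the first day (log2 0.25 ± 0.061, adjusted p = 0.0232), a call lost with median scaling and with quantile normalization, and without any array but EpiSC culture A. Foxj2 measured 12.02 and 69.9 in the NPC1 duplicates, which differ more than any group means of the gene, and it passed in no comparison, although 2 of them passed without NPC1 culture A or with normexp. Foxc1, Foxi1, Foxj3, Foxp3, Foxr1 and Foxs1 passed in none either, with log2 changes between -0.74 and 0.28. Foxs1 was a lower call in NPC1 and NPC2 against EpiSC with median scaling and with quantile normalization, and Foxp3 and Foxr1 passed in some comparisons when 1 array was left out.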

How the data were processed

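Per the file headers, Agilent Feature Extraction 10.10.1.1 (protocol GE1_1010_Sep10) turned the authors' scans into a background-subtracted processed intensity and flags for every spot. Their deposited table of values holds this intensity times 1 constant per array, 2.10 to 2.41. Its scale is linear and not centred, its direction follows the signal, and its medians were 51.3 to 65.3. Per the labels' protocols, the input was 100 ng of RNA.

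Control spots and outlier spots were left out, and spots of a probe were averaged. Probes were named through RefSeq accessions in the GRCm38.p6 gene table: 26744 probes had 1 symbol and 28902 none. The processed intensity was taken to log2 and each array's 75th percentile was subtracted. A gene stood by its brightest probe among those well above background on both arrays of a group. The test was that of limma 3.58.1 (R 4.3.3), in 1 fit of 6 arrays and 3 groups (3 residual and 1.9 prior degrees of freedom), adjusted by Benjamini-Hochberg over 14772 genes at 0.05 and tested on simulated data. Duplicates correlated at r = 0.997 to 0.998 across genes, and the median SE was 0.068. The arrays, 2 per group, limit the precision. Per-sample columns without a sample numbered 0.

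Counts cover every forkhead gene found, the values of some genes are not reported here, and from each other list the 4 called genes with the largest change in NPC2 against EpiSC were named, apart from the named markers. The members and lists were chosen with earlier results of these data known. Promoter sequences are those of RefSeq. Alternatives covered the scaling, background correction, probe filter, probe choice, culture letter and single arrays. With normexp, the median intensity of a spot was used and an offset of 50 was added.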

Additional observations from a re-analysis of the deposited data

How the results depend on the processing

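In 15 alternative settings, of 33 called changes of at least 2-fold in forkhead genes, the call of 1 was lost, that of Foxb1 in NPC1 against EpiSC without EpiSC culture B. Of all 66 called changes, 19 lost the call in at least 1 setting, and 27 were over 1.5 times smaller with normexp background correction, for example Foxd4 in NPC2 against EpiSC (1.85, against 3.29). Dim probes are those limited most by signal over background, and the offset of 50 in normexp also makes their log2 changes smaller. A gene that a setting did not test was not counted as losing its call. Where all 6 arrays had to be well above background, 27 of the 34 members were tested, and Foxq1 and Foxe1 were among those left out. The number of members higher in NPC1 than EpiSC, 7, ranged from 3 to 6 when 1 array was left out. Foxl2 in NPC2 against EpiSC turned from -0.26 to 0.0177 (adjusted p = 0.877) with quantile normalization, and Foxp3 in NPC1 against EpiSC ranged from -0.53 to 0.31 over left-out arrays, with 0.31 without NPC1 culture B; the cause was not tested. Among all genes, the lower share of calls in NPC1 against EpiSC was 57.1%, and 71.2% with median scaling, 48.6% with quantile normalization and 37.9% with the authors' value table; in NPC2 against EpiSC it was 58.9%, and 66.6%, 49.4% and 38.8%. The median of all genes then stood at up to -0.20 (median scaling) and 0.13 (value table) in NPC2 against EpiSC. In NPC2 against NPC1 it was 56.5%, and 41.0% with the value table. With the letter as a replicate block, 7 members were higher and 11 lower in NPC1 against EpiSC, 8 and 16 in NPC2 against EpiSC, and 10 and 13 in NPC2 against NPC1, where Foxi1 gained a call in NPC1 against EpiSC (adjusted p = 0.0229) and in NPC2 against NPC1 (adjusted p = 0.0269). Over all tested genes, deviations of same-letter arrays from their group means correlated at 0.0080, 0.0063 and -0.045. Foxi1 itself was higher in culture A than in culture B in every group (21.5 and 17.0, 18.3 and 14.4, and 21.2 and 16.9). Whether same-letter cultures share more than a name was not tested for single genes.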

Other observations

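Among transcripts that bear a forkhead locus name but code for no protein, Foxd2os, annotated as the opposite strand of Foxd2, was well above background on all 6 arrays. Its probe measured 24.5 and 22.8 in EpiSC, 22.3 and 25.1 in NPC1, and 31.2 and 37.7 in NPC2. The log2 change was 0.54 in NPC2 against EpiSC (limma adjusted p = 0.0106) and 0.53 in NPC2 against NPC1 (limma adjusted p = 0.0167). The probe of Foxd2 itself was well above background on 1 of 6 arrays.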
